A study of Mus musculus with 48 samples.

Results

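Integrins are receptors of 1 alpha and 1 beta subunit that span the cell membrane and bind other cells, complement or the matrix. Leukocytes, and microglia in the brain, are known for the beta2 integrins, in which Itgb2 (CD18) is paired with Itgal (CD11a), Itgam (CD11b) or Itgax (CD11c). Itga4 and Itga6 pair with Itgb1, the common beta subunit of the receptors for fibronectin, VCAM-1 and laminin, and Itgb5 pairs with the alpha subunit Itgav as a vitronectin receptor. CD11c marks dendritic cells outside the brain and is also known from microglia near amyloid plaques.

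The 8 genes Itgax, Itgam, Itgal, Itgb2, Itga4, Itgb1, Itga6 and Itgb5 were chosen by name, as integrin subunits of leukocytes, out of 22911 genes named on the array. They were found through the transcript accession of each probe, which gave 14 probes. Of these, 11 were kept, and each of the 8 genes had at least 1 kept probe. Kept probes had a signal well above background, by the scanner software, on 4 or more arrays of some group of the tissue. Of the probes not kept, the second Itgax probe was at background on every array, the second Itga4 probe was above it on 1 of 22 cortex and 8 of 24 hippocampus arrays, and the third Itga6 probe on 2 of 22 and 0 of 24.

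Cortex and hippocampus of 24 male mice on a C57Bl6/J background were measured on 48 one-color arrays. The groups were WT littermates and heterozygous APP/PS1 mice (APPswe/PS1dE9, which carry transgenes for a mutant amyloid precursor protein and a mutant presenilin 1 and form amyloid plaques), each on plain drinking water (H2O) or on MSX-3. MSX-3, a prodrug of the A2AR antagonist MSX-2, was dissolved in the water at 0.3 g/L. It was given from 3 months of age per the sample labels, or from 4 months per the text on the series, to 9 to 10 months of age, when all groups were killed. Both tissues came from the same mice, so that the tissues are not independent samples. In this model the transgenes are driven by elements of the prion protein promoter, and total RNA of whole tissue was measured, so that more cells of a type and more RNA per cell cannot be told apart.

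Levels are log2 intensities minus the 75th percentile of the array, so that a level of 0 is the intensity that 75% of spots do not exceed. A difference was called where the adjusted p-value (limma, Benjamini-Hochberg over all kept probes) was under 0.05 and the fold change was 1.5 or more. The scanner software found no grid on 2 cortex arrays, 1 of WT H2O and 1 of WT MSX-3 mice, and these were left out, leaving 5 arrays in each of these groups and 6 in all others. On the other 46 arrays 55.8 to 75.5% of the spots were well above background. As a check of the genotype labels, every APP/PS1 array lay above every WT array for Prnp, with a gap of 1.72 (cortex) and 1.4 (hippocampus) on the log2 scale, while the probe of App overlapped between genotypes. The arrays were scanned on 2 days, the first of which held 11 of 12 APP/PS1 and 5 of 10 WT cortex arrays and 10 of 12 and 6 of 12 hippocampus arrays.

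Itgax and Itgam are neighbors on chromosome 7, with Itgad next to Itgax. The 250 bases before the start of each are printed here because Itgax rose in APP/PS1 mice and Itgam did not pass the test by either kept probe. They are from RefSeq (GRCm38.p6, plus strand, 5′ to 3′), at chr7:128129300-128129549 for Itgax and chr7:128062390-128062639 for Itgam. Capitals mark GAGGAA, or TTCCTC where it lies on the minus strand, a form of the site recognized by the myeloid factor PU.1.
Itgax: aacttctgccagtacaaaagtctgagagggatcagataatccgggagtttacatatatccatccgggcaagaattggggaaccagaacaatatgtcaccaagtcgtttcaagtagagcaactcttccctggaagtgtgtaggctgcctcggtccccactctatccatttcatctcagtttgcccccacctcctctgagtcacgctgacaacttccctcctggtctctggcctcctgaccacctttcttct
Itgam: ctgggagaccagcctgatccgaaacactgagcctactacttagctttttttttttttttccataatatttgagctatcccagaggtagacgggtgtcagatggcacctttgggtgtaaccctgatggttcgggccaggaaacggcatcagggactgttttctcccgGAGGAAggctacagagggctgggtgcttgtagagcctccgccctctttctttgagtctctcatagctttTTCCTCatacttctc
Itgam holds these letters 2 times, starting 84 and 15 bases before the start, and Itgax 0 times. Shorter forms of the site were not counted, so this count does not show that Itgax lacks a PU.1 site. The motif occurs on either strand in 23.3% of 32851 windows of this length. The table of promoters held 5 of the 8 genes and did not list Itgb2, Itgal or Itga6. In the windows not printed, Itgb1 held the motif 1 time and Itga4 and Itgb5 0 times. Whether the motif bears on the levels was not tested.

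Itgax, Itgb2 and Itgb5 were higher in the cortex of APP/PS1 than of WT mice on H2O, and Itgax was also higher in the hippocampus. In the cortex 3 of the 8 genes were called higher and 0 lower, against 1.34% of 37680 kept probes called higher. In the hippocampus 1 of 8 was called higher and 0 lower, against 0.338% of 38128 kept probes. The 8 genes were chosen with earlier results of these data known, so these shares give a scale and are no test of the set. The median log2 difference over the 8 genes was 0.293 (cortex) and 0.218 (hippocampus), and over all kept probes it was -0.0333 and -0.0325.

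**Figure D1:**
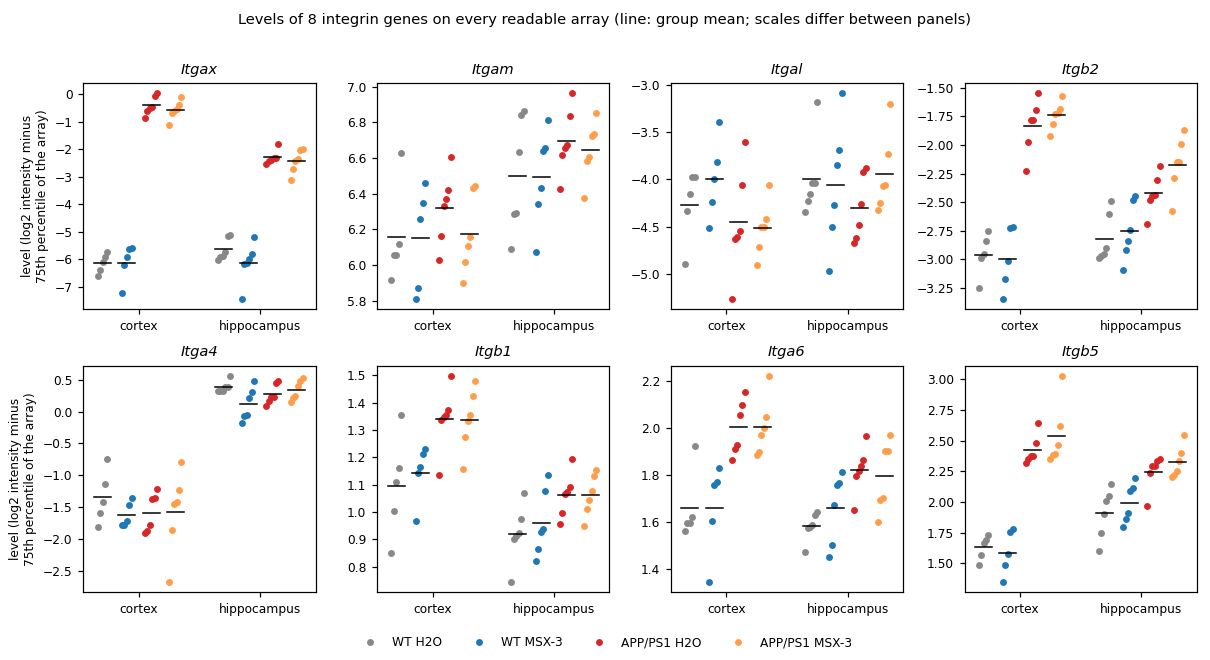
Levels (log2 intensity minus the 75th percentile of the array) of the 8 genes on each of the 46 readable arrays, by tissue, genotype and agent. Points are arrays, lines are group means, and the vertical scale differs between panels. The APP/PS1 arrays lie apart from the WT arrays for Itgax in both tissues and for Itgb2 and Itgb5 in the cortex, and Itga4 is lower in the cortex than in the hippocampus.

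Itgax, the alpha subunit of CD11c/CD18, stood at -6.63, -6.38, -6.10, -5.91 and -5.73 on the 5 cortex arrays of WT H2O mice and at -0.85 (lowest), -0.48 (median) and 0.04 (highest) on the 6 of APP/PS1 H2O mice. All APP/PS1 arrays were above all WT arrays, by more than the whole range within either group. The means were -0.40 ± 0.34 (SD, n = 6) and -6.15 ± 0.36 (SD, n = 5), a difference of 5.75 (SE 0.195, 53.7-fold, adjusted p = 6.4e-08 in limma). On the WT arrays the probe was well above background on 1 of 5, so that the WT level is mostly a bound. With the lowest signal well above background on each array in place of dimmer WT values, Itgax was 45.6-fold higher. This floor was taken over all probes of an array and ran from -7.39 to -5.49. It is not the detection limit of the Itgax probe, so the fold is no strict lower bound. After normexp background correction with an offset of 50 the log2 difference was 3.04 and was still called.

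In the hippocampus of H2O mice, Itgax stood at -6.04, -5.81 and -5.13 (lowest, median, highest) in WT and at -2.54, -2.35 and -1.80 in APP/PS1 mice. The genotypes again did not overlap, and 1 of 6 WT arrays was well above background. The difference was 3.36 (SE 0.182, 10.2-fold, adjusted p = 3.26e-06 in limma), 10-fold with the floor in place of dimmer WT values, and 1.45 (log2) after normexp. With the slide as a block this call was lost (3.19, adjusted p = 0.124), in a fit where 2 probes of the whole array were called.

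Among mice on MSX-3, Itgax stood at -7.23, -6.22, -5.94, -5.63 and -5.61 in the cortex of WT and at -1.11, -0.57 and -0.10 (lowest, median, highest) in APP/PS1 mice. In the hippocampus it stood at -7.46, -6.06 and -5.20 in WT and at -3.14, -2.39 and -1.98 in APP/PS1 mice. The APP/PS1 arrays were above all WT arrays in both tissues. The differences were 5.55 in the cortex (SE 0.279, adjusted p = 5.43e-07 in limma) and 3.69 in the hippocampus (SE 0.321, adjusted p = 0.00017), with 1 WT array of 5 and of 6 well above background. With the floor in place of dimmer WT values they were 29.2-fold and 9.36-fold.

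Itgax was higher in the cortex than in the hippocampus of each of the 12 APP/PS1 mice. Between the tissues of 1 mouse it differed by 1.69 to 2.27 on H2O (median 1.83, 6 of 6 mice) and by 1.29 to 2.52 on MSX-3 (median 1.82, 6 of 6 mice). The genotype difference in the cortex exceeded that in the hippocampus by 2.39 on H2O (SE 0.274, adjusted p = 6.97e-05 in limma), where 1 of the 8 genes and 0.272% of 36743 probes were called. On MSX-3 the excess was 1.87 (SE 0.447, 95% interval 0.94 to 2.80, adjusted p = 0.13) and was not called, against 0.185% of probes. Without WT MSX-3 mouse 77 it was 2.11 and called (adjusted p = 0.0364), and it was also called with normexp, with quantile normalization and in the 3 fits with all groups. WT arrays were mostly at background in both tissues (1 of 5 and 1 of 6 above it on H2O), so the size and the p-value of this excess depend on the floor of the WT values. The excess on H2O was 1.59 after normexp (adjusted p = 2.77e-05 in limma). With the floor in place of dimmer WT values, the log2 genotype differences on H2O were 5.51 and 3.33. The difference between the tissues of each APP/PS1 mouse does not use the WT arrays.

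**Figure D2:**
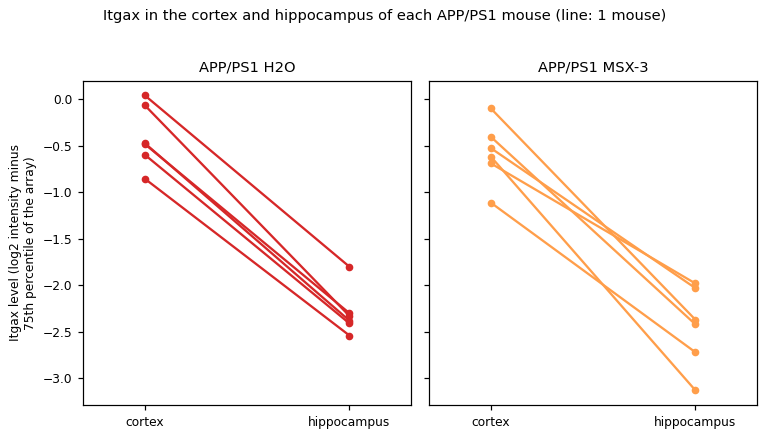
Level of Itgax (log2 intensity minus the 75th percentile of the array) in the cortex and the hippocampus of each APP/PS1 mouse on H2O and on MSX-3, a line joining the tissues of 1 mouse. Every line falls from cortex to hippocampus, by 1.69 to 2.27 on H2O and by 1.29 to 2.52 on MSX-3.

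Itgb2, the beta subunit shared by CD11a, CD11b and CD11c, stood at -3.25, -2.99, -2.96, -2.84 and -2.75 in the cortex of WT H2O mice and at -2.23, -1.78 and -1.55 (lowest, median, highest) in that of APP/PS1 H2O mice. The genotypes did not overlap. Itgb2 was 2.18-fold higher in APP/PS1 mice (log2 difference 1.12, SE 0.13, adjusted p = 0.000432 in limma). On MSX-3 it stood at -3.35, -3.17, -3.01, -2.73 and -2.72 in WT and at -1.92, -1.73 and -1.57 in APP/PS1 mice, a 2.38-fold difference (log2 1.25, SE 0.127, adjusted p = 0.000145).

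In the hippocampus the Itgb2 difference was not called on the compared groups alone. It was 0.39 on H2O (SE 0.112, adjusted p = 0.229 in limma) and 0.58 on MSX-3 (SE 0.141, adjusted p = 0.208), with overlap between genotypes in both. It was called on H2O with all groups and the scan day in the fit (0.59, adjusted p = 0.0308) and on MSX-3 with all groups and the slide (0.59, adjusted p = 0.0333). The excess of the cortex over the hippocampus was 0.73 on H2O (adjusted p = 0.0942) and 0.67 on MSX-3 (adjusted p = 0.329) and was not called. It was called on H2O with all groups and the scan day (0.66, adjusted p = 0.032), and on MSX-3 with the scan day (0.82, adjusted p = 0.0111), with all groups and the slide (0.82, adjusted p = 0.0196) and with all groups and the scan day (0.79, adjusted p = 0.00426).

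Itgb5, whose pairing with Itgav serves adhesion to vitronectin and uptake of dying cells, stood at 1.49, 1.57, 1.67, 1.69 and 1.73 in the cortex of WT H2O mice and at 2.32, 2.38 and 2.65 (lowest, median, highest) in that of APP/PS1 H2O mice. The genotypes did not overlap, and the difference was 0.79 (SE 0.083, 1.73-fold, adjusted p = 0.000201 in limma). On MSX-3, Itgb5 stood at 1.35, 1.49, 1.58, 1.75 and 1.78 in WT and at 2.35, 2.43 and 3.03 in APP/PS1 mice, a difference of 0.95 (SE 0.137, 1.93-fold, adjusted p = 0.00244). With all groups and the slide in the fit this call was lost (0.83, adjusted p = 0.0771). In the hippocampus the differences of 0.34 on H2O (SE 0.103, adjusted p = 0.262) and 0.33 on MSX-3 (SE 0.0934, adjusted p = 0.4) were not called, although on MSX-3 every APP/PS1 array was above every WT array.

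In the cortex on MSX-3, 3 of the 8 genes were called higher, against 1.29% of probes, and 1 of 8 in the hippocampus, against 0.312%. Without overlap and higher in APP/PS1 mice were 3 genes in the cortex on H2O (2.06% of probes), 4 in the cortex on MSX-3 (2.36%), 2 in the hippocampus on H2O (0.741%) and 2 on MSX-3 (0.588%). Itga6 was the fourth gene in the cortex on MSX-3 and the other gene in the hippocampus on H2O, and Itgb5 was the other one in the hippocampus on MSX-3.

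Within the first scan day, with 5 APP/PS1 and 2 WT cortex arrays on H2O, Itgax differed by 5.62, Itgb2 by 1.24 and Itgb5 by 0.85 (log2). Within the second, with 1 and 3 arrays, the differences were 5.76, 1.17 and 0.72. All 6 hippocampus arrays of APP/PS1 H2O mice and all 6 cortex arrays of APP/PS1 MSX-3 mice were scanned on the first day, so the second gave no value there. Within the first day, with 6 APP/PS1 arrays in each case, Itgax differed by 3.24 from 2 WT hippocampus arrays on H2O and by 5.35 from 3 WT cortex arrays on MSX-3. In the hippocampus on MSX-3 it differed by 3.82 on the first and 3.42 on the second day. With the slide as a block, Itgb2 (0.95, adjusted p = 0.0741 in limma) and Itgb5 (0.64, adjusted p = 0.0578) lost their calls in the cortex on H2O and Itgax kept it (5.57, adjusted p = 0.0095).

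**Figure D3:**
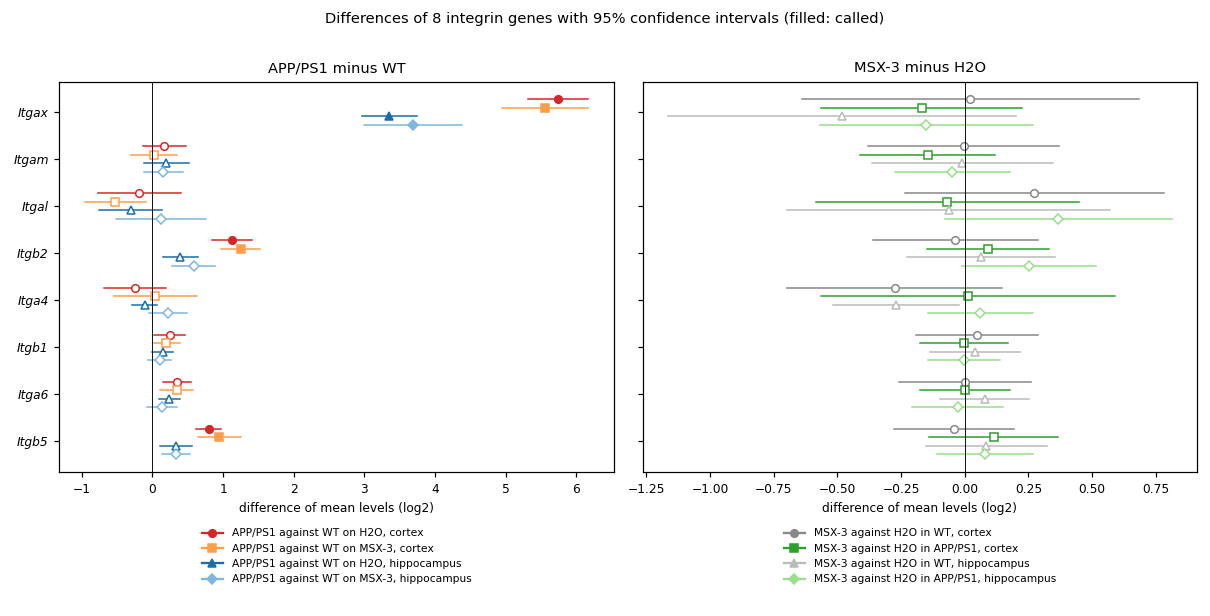
Differences of mean levels (log2) of the 8 genes, between APP/PS1 and WT mice (left) and between MSX-3 and H2O (right), with 95% confidence intervals from limma; filled symbols were called. The horizontal scales differ. Filled symbols are those of Itgax in all 4 genotype comparisons and of Itgb2 and Itgb5 in both of the cortex, and there is none on the right.

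Itgam, the alpha subunit of complement receptor 3, was read by 2 kept probes that disagree in level and in sign. Over all arrays of a tissue, the brighter one had means of 6.2 (cortex) and 6.6 (hippocampus), and the dimmer one -4.07 and -3.97. Their percentile ranks in the cortex were 99.5 and 44.6. The dimmer one was well above background on 20 of 22 cortex and 22 of 24 hippocampus arrays. The brighter one (NM_001082960) had mean levels of 6.32 ± 0.20 (SD, n = 6) in APP/PS1 and 6.16 ± 0.28 (SD, n = 5) in WT cortex on H2O, a difference of 0.17 (SE 0.14, 95% interval -0.14 to 0.47, adjusted p = 0.662 in limma). Its other 3 genotype differences lay between 0.03 and 0.19 and were not called. The dimmer one (NM_008401) differed by 0.26 in the cortex on H2O but by -0.59 on MSX-3, and by -0.49 and 0.35 in the hippocampus, and was not called in any of these (smallest adjusted p = 0.243). Which transcripts each probe binds was not examined here, so which of them reads Itgam was not tested. The brighter one stands for Itgam in the counts and medians of the chosen genes.

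Itgal, the alpha subunit of LFA-1, lay near background, with 18 of 22 cortex and 22 of 24 hippocampus arrays well above it. Its genotype differences were -0.19 and -0.53 in the cortex on H2O and MSX-3 and -0.31 and 0.12 in the hippocampus, with adjusted p-values of 0.807, 0.323, 0.628 and 0.97 in limma.

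Itga4, Itgb1 and Itga6, subunits of the fibronectin, VCAM-1 and laminin receptors, were called in 0 of the 4 genotype comparisons. Itga6 had differences of 0.34 in the cortex on H2O (95% interval 0.14 to 0.54, adjusted p = 0.109 in limma), 0.34 on MSX-3 (adjusted p = 0.207), and 0.24 (adjusted p = 0.202) and 0.14 (adjusted p = 0.959) in the hippocampus, and its second kept probe had the same signs. Itgb1 differed by 0.24 and 0.19 in the cortex and by 0.14 and 0.10 in the hippocampus, with adjusted p-values from 0.368 to 0.959. Its second probe differed by -0.03 and 0.27 in the cortex and by -0.07 and 0.06 in the hippocampus. Itga4 differed by -0.25 and 0.04 in the cortex and by -0.11 and 0.22 in the hippocampus, with adjusted p-values from 0.655 to 0.963.

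Itga4 was the gene of the 8 that differed between the tissues of WT mice on H2O. It stood between -1.82 and -0.74 in the cortex (mean -1.34 ± 0.42, SD, n = 5) and between 0.33 and 0.56 in the hippocampus (mean 0.39 ± 0.09, SD, n = 6), without overlap. It was lower in the cortex by a log2 difference of -1.73 (SE 0.164, 3.32-fold, adjusted p = 1.07e-05 in limma), where 6.96% of 36743 probes were called lower and 9.34% were lower without overlap. Of the choroid plexus list 1 of 6 genes (Kl) was called lower in the cortex. Its summed levels overlapped, with 0.4 to 3.5 in the cortex and 1.34 to 211 in the hippocampus of these mice, and its part in the Itga4 difference was not tested.

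MSX-3 moved none of the 8 genes past the threshold, in WT or APP/PS1 mice and in either tissue. In these comparisons 0 probes of the whole array were called in limma, with 0% of 37680 in the cortex and of 38128 in the hippocampus, while 1465 to 3272 probes were at an unadjusted p under 0.05. Of the 8 genes, each by its brightest kept probe, Itga4 in the hippocampus of WT mice was at such a p (-0.27, unadjusted p = 0.0358, adjusted p = 0.966 in limma). The dimmer Itgam probe had differences of -0.52 in the cortex and 0.60 in the hippocampus of APP/PS1 mice (adjusted p = 0.731 and 0.98), while the brighter one had -0.15 and -0.05. For Itgax in APP/PS1 mice, the difference of MSX-3 from H2O was -0.17 in the cortex (95% interval -0.56 to 0.23) and -0.15 in the hippocampus (-0.57 to 0.27). For Itgb2 it was 0.09 (-0.15 to 0.33) and 0.25 (-0.01 to 0.51), and for Itgb5 0.11 (-0.14 to 0.37) and 0.08 (-0.11 to 0.27).

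The interaction of genotype and MSX-3 was called for 0 of the 8 genes and 0% of probes in both tissues. For Itgax it was -0.19 in the cortex (95% interval -0.93 to 0.55, adjusted p = 0.893 in limma) and 0.33 in the hippocampus (-0.46 to 1.13, adjusted p = 0.906). Over the 8 genes the interaction lay between -0.34 and 0.29 in the cortex, with 0 unadjusted p-values under 0.05, and between -0.11 and 0.43 in the hippocampus, with 1. The genotype, drug and interaction comparisons share arrays.

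Of the other integrin subunits, 13 of 18 were measured in the cortex and 14 in the hippocampus. Among them Itga9, which binds tenascin and VCAM-1, was called higher in APP/PS1 mice in the hippocampus on H2O (0.95, adjusted p = 0.047 in limma) and on MSX-3 (0.84, adjusted p = 0.0221). The genotypes overlapped in both. In the cortex Itga9 was called on MSX-3 (0.84, adjusted p = 0.011), without overlap, and missed the threshold on H2O (0.74, adjusted p = 0.0648). These were 1 of 14, 1 of 14, 1 of 13 and 0 of 13 subunits. Of all probes, 0.338%, 0.312%, 1.29% and 1.34% were called higher. Itga9 was not followed under other settings. Itgav, the partner of Itgb5, had differences of -0.15 and -0.03 in the cortex and -0.06 and -0.15 in the hippocampus. Between the cortex and the hippocampus of WT mice on H2O, 2 of 13 subunits (Itgav and Itgb3) were called higher in the cortex. Another 3 (Itga7, Itga8 and Itga11) were called lower. Of 36743 probes, 2710 were called higher and 2556 lower there.

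Of the genes that activate integrins or signal with them, 33 of 35 were measured, and 9 were called higher and 0 lower in the cortex on H2O (8 and 0 on MSX-3), against 1.34% and 1.29% of all probes called higher. The median log2 difference on H2O was 0.264, and over all probes -0.0333. The adaptors Tyrobp and Fcer1g, through which integrins reach the kinase Syk, differed by 2.29 (SE 0.135, adjusted p = 2.62e-06 in limma) and 1.55 (SE 0.0859, adjusted p = 1.67e-06). Others called on H2O included the exchange factor Vav1 (1.16), the phospholipase Plcg2 (1.08), the Rap1 effector Apbb1ip (1.07), the adaptor Fyb (1.16), Parvg (0.87), and Fermt3 (0.79, adjusted p = 0.032), the kindlin of blood cells. Fermt3 was the gene of these that was not called on MSX-3.

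In the hippocampus, Tyrobp (1.22 and 1.10 on H2O and MSX-3) and Fcer1g (0.70 and 0.72) were called on both, Vav1 on H2O (0.63) and Fyb on MSX-3 (0.65). Of the 33 genes, 3 were called higher in each comparison, against 0.338% and 0.312% of all probes, with medians of 0.104 and 0.0522. The excess in the cortex was called for 5 of the 33 genes on H2O and 4 on MSX-3, against 0.272% and 0.185% of all probes. These were Tyrobp (1.07 and 1.31), Fcer1g (0.85 and 0.77) and Apbb1ip (0.66 and 0.67) on both, Plcg2 (0.84) and Fyb (0.67) on H2O, and Vav1 (0.82) on MSX-3. The largest adjusted p among them was that of Apbb1ip on H2O (0.0478 in limma). In WT mice on H2O, 2 of the 33 genes (Rassf5 and Skap1) were called higher in the cortex than in the hippocampus. Another 6 (Lyn, Parvb, Parvg, Plcg2, Ptk2b and Rap1a) were called lower. Of 36743 probes, 2710 were called higher and 2556 lower between these tissues.

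Of the ligands, 21 of 27 were measured in the cortex. There 2 were called higher on H2O, Spp1 (osteopontin, 0.98, adjusted p = 0.0152 in limma) and F11r (JAM-A, a ligand of LFA-1, 0.81, adjusted p = 0.000681). On MSX-3 it was F11r (0.77, adjusted p = 0.00439). Of all probes, 1.34% and 1.29% were called higher. The median log2 difference of the ligands on H2O was 0.116, and over all probes -0.0333. In the hippocampus 0 of 22 were called on H2O and on MSX-3, against 0.338% and 0.312% of all probes called higher. The difference of C3, the source of a ligand of CD11b and CD11c, was 0.46 in the cortex on H2O (SE 0.211, adjusted p = 0.424), and that of Vcam1 was 0.16 (adjusted p = 0.575). In WT mice on H2O, 1 of 21 ligands (Lama4) was called higher in the cortex than in the hippocampus and 2 (Icam5 and Lamb1) lower. Of 36743 probes, 2710 were called higher and 2556 lower in that comparison.

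**Figure D4:**
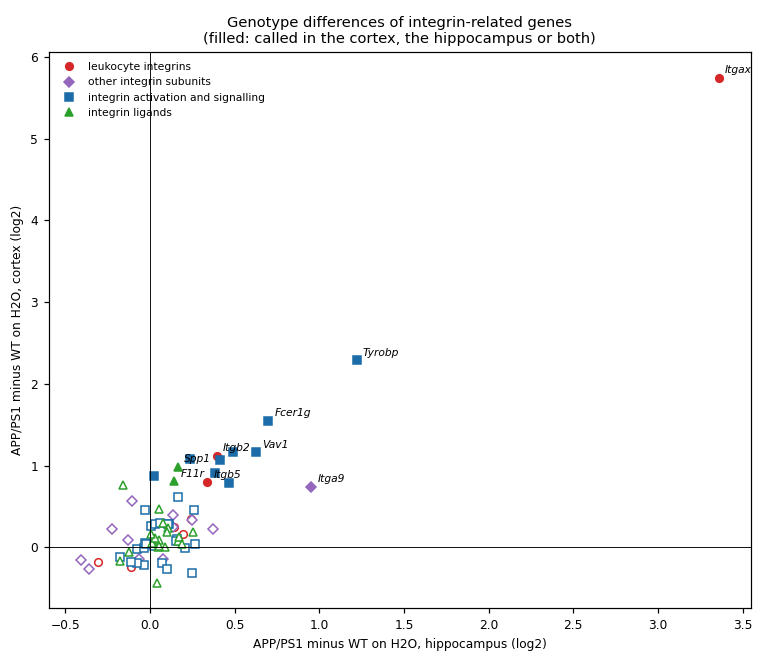
Differences of mean levels (log2) between APP/PS1 and WT mice on H2O in the hippocampus (horizontal) and the cortex (vertical) for the 8 integrins and the other integrin-related genes measured in both tissues. Filled symbols were called in the cortex, the hippocampus or both, and Itgax, at 3.36 and 5.75, lies farthest from 0, with Tyrobp next at 1.22 and 2.29.

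The genes nearest to Itgax over the 46 arrays, by the mean absolute difference of centered log2 levels among 15829 genes, were Ccl3 (0.542), Ccl4 (0.547) and Cst7 (0.674), against a median of 2.29 over all genes. Ccl3 and Ccl4 are chemokines and Cst7 is an inhibitor of cathepsins. Nearest to Itgb2 were Hk3 (0.153), Lair1 (0.163) and Fes (0.164, median of all 0.484). Nearest to Itgb5 were Slc7a7 (0.108), Slco2b1 (0.119) and Hexa (0.12, median of all 0.364). A flat profile would lie at 2.28 from Itgax, 0.433 from Itgb2 and 0.305 from Itgb5, so the medians are near the distance to a gene that does not move.

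Markers of microglia moved along with Itgax, Itgb2 and Itgb5. In the cortex on H2O, 6 of 12 markers of homeostatic microglia and 9 of 11 measured markers of plaque-associated microglia were called higher in APP/PS1 mice. Of all probes, 1.34% were called higher. The called homeostatic markers included Aif1, Csf1r, Cx3cr1, Fcrls and Gpr34. Called or not, 11 of the 12 homeostatic markers were higher and 1 was lower, and all 11 plaque-associated ones were higher. The median differences were 0.683 and 1.34 (log2). The summed level of a list is the sum of its intensities, each divided by the 75th percentile, so that its brightest genes weigh most. For plaque-associated microglia it was 111 to 141 in WT and 175 to 232 in APP/PS1 mice, without overlap, and for homeostatic microglia 183 to 271 and 226 to 271, with overlap. In the hippocampus on H2O, 0 of 12 homeostatic and 5 of 11 plaque-associated markers were called, against 0.338% of all probes called higher. Of the 12 homeostatic markers 11 were higher there and 1 was lower, and all 11 plaque-associated ones were higher. By the adjusted p-value alone (under 0.05 in limma), without the fold threshold, 3 homeostatic and 6 plaque-associated markers passed. The sums overlapped between WT and APP/PS1 mice. They were 142 to 174 and 149 to 223 for plaque-associated and 204 to 264 and 246 to 266 for homeostatic microglia. How far the number or state of microglia sets the integrin levels was not tested.

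Markers of other leukocytes differed in how far they were detected. For monocytes and dendritic cells, Ccr2 was well above background on 0 of 22 cortex and 0 of 24 hippocampus arrays and Xcr1 on 0 and 4, while Ly6c2 and Flt3 were so on all 22 and all 24. For T and NK cells, Cd3g was so on 0 and 1 and Gzmb on 0 and 0 arrays, while Cd3e, Cd4 and Lck were so on all 22 and all 24. For neutrophils, Ngp was so on 3 and 0 arrays, while S100a9, Camp, Mpo and Elane were so on all. For B cells, Ms4a1 was so on 0 and 0 and Cd79b on 16 and 19 arrays. Of the measured genes in these lists, 0 of 4 for monocytes and dendritic cells, 0 of 5 for neutrophils, 1 of 6 for T and NK cells (Cd5, 0.92, adjusted p = 0.0189 in limma) and 0 of 4 for B cells were called in the cortex on H2O, against 1.34% of probes called higher. Their summed levels overlapped between the genotypes, with 4.72 to 9.30 in WT and 6.10 to 9.06 in APP/PS1 mice for monocytes and dendritic cells, 0.80 to 1.95 and 0.80 to 1.45 for neutrophils, 3.02 to 7.14 and 3.05 to 7.03 for T and NK cells, and 0.104 to 0.149 and 0.144 to 0.37 for B cells. Of the lists for other cells, the astrocyte gene Gfap was called (2.69, adjusted p = 1.24e-06 in limma; 1 of 7), and 0 of 5 for border macrophages, 0 of 7 for endothelium, 0 of 7 for neurons and 0 of 6 for oligodendrocytes. The astrocyte sums were 52.5 to 62.6 in WT and 60.1 to 69.8 in APP/PS1 mice.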

How the data were processed

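The authors deposited one-color intensities, as scanner files and a series matrix, from Agilent Feature Extraction 10.7.3.1, background-subtracted and not normalized between arrays. Both held equal values for 3022848 of 3022848 spots (relative tolerance 1e-06). Control spots and spots flagged as non-uniform or population outliers were left out, log2 was taken, the 75th percentile of the array subtracted, and spots of the same probe averaged (56605 probes). Accessions named 32994 probes through RefSeq. A gene is represented by its kept probe with the highest mean level. Groups were compared with limma 3.58.1 (R 4.3.3) on the arrays of the compared groups, and the procedure was tested on simulated data. The 75th percentile ran from 530.9 to 1073 on the 46 arrays used and was 2.406 and 3.031 on the 2 left out. The number of arrays limits the precision.

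Genes named are the 8 integrins, the called genes of 3 lists (other subunits, signalling, ligands), Prnp and App, the 3 nearest profiles of each called integrin, and markers whose list moved or that were at background. C3, Vcam1, Itgav, Kl, Gfap, Cd5 and the detected markers of other leukocytes were named after their values were seen. Some called genes are not reported here by name. The genes and lists were chosen with earlier results of these data known.

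Mouse numbers pair the tissues, since both came from 1 animal. Over 22 mice the correlation of deviations from the group means between the tissues ran from -0.52 to 0.499 (median 0.0384, 10 mice above 0.1). Alternatives were background correction, quantile normalization, series matrix, percentile, filters, fold threshold, spread, slide, scan day, mouse block, samples in the fit, probe choice and leaving out each mouse.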

Additional observations from a re-analysis of the deposited data

Results flagged for a closer look

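Chance sets about 1 group in 20 apart in this way, and 8 of 88 groups tested held an array whose gap to the nearest other one, divided by the range of the group, passed Dixon's 95% value. The high ones were Itgax in the hippocampus of APP/PS1 H2O mouse 323 (-1.80 against -2.30, ratio 0.68), Itgal in the hippocampus of WT H2O mouse 56 (-3.18 against -4.04, 0.736), the dimmer Itgam probe in the cortex of APP/PS1 H2O mouse 255 (-3.12 against -3.86, 0.643) and of WT MSX-3 mouse 304 (-3.12 against -3.86, 0.716), the brighter Itgam probe in the cortex of WT H2O mouse 308 (6.63 against 6.12, 0.715), Itga6 in the cortex of WT H2O mouse 318 (1.92 against 1.62, 0.832) and Itga4 in the hippocampus of WT H2O mouse 310 (0.56 against 0.39, 0.741). The low one was Itgb5 in the hippocampus of APP/PS1 H2O mouse 255 (1.97 against 2.23, 0.687).

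The genotype difference of Itgax on H2O was larger in the cortex than in the hippocampus by 2.39 on the log2 scale (adjusted p = 6.97e-05 in limma), a size that depends on the floor of WT arrays mostly at background, and was called in 12 of 12 fits without 1 mouse and under 16 of 17 other settings, the exception being the fit on all 48 arrays.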

How the results depend on the processing

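Of the 8 genes, 0 were called between MSX-3 and H2O or for the interaction under each alternative that was run. With all 48 arrays, including the 2 without a grid, the count fell from 3 to 0 in the cortex on H2O and on MSX-3 and from 1 to 0 for the cortex minus hippocampus difference on H2O. In that fit Itgb2 was -0.245 for this difference on MSX-3, and Itgax 0.413 between the cortex and hippocampus of WT mice, both with the opposite sign. With the slide as a block the count was 1 in the cortex and 0 in the hippocampus on H2O, and this fit could not be made in the cortex on MSX-3. With all groups of a tissue and the scan day it was 2 in the hippocampus on H2O (Itgax and Itgb2), 2 for the cortex minus hippocampus difference on H2O (Itgax and Itgb2) and 3 for that on MSX-3 (Itgax, Itgb2 and Itgb5). With all groups and the slide it was 2 in the hippocampus on MSX-3 and 2 for the difference on MSX-3 (Itgax and Itgb2 in both), and 2 in the cortex on MSX-3, where Itgb5 lost its call. That difference had 0 calls as reported, and 1 with normexp and 1 with quantile normalization (Itgax), 1 with the scan day (Itgb2), 2 with all groups (Itgax and Itgb5), and 0 to 1 without 1 mouse (1 without WT MSX-3 mouse 77). With array weights 2 genes (Itga4 and Itgax) differed between the tissues of WT mice. The cause was not tested in these cases. With the mouse as a replicate block, pairing both tissues, the counts were 1 on H2O, 0 on MSX-3 and 1 between WT tissues, as without it, and it changed no other call. Over the whole array, the number of called probes moved by over 1.5 times as follows. On H2O it was 559 in the cortex as reported, 51 with all 48 arrays, 342 with normexp and 1087 with array weights, and in the hippocampus it was 144 as reported, 86 with normexp, 2 with the slide and 68 with the scan day. On MSX-3 it was 536 in the cortex, 30 with all 48 arrays and 281 with all groups and the slide, and in the hippocampus 120, 59 with normexp and 45 with the slide. Between MSX-3 and H2O in the cortex of WT mice it was 0 as reported and 3068 with array weights, with 0 of the 8 genes among them, and in the hippocampus of APP/PS1 mice 0 to 1 without 1 mouse. Between WT tissues it was 5266, 1706 with all 48 arrays and 9284 without a minimum fold. For the cortex minus hippocampus difference it was 100 on H2O, 3 with all 48 arrays, 60 with quantile normalization, 61 without a filter and 47 to 100 without 1 mouse, and 68 on MSX-3, 5 with all 48 arrays, 120 with array weights, 6 with the slide, 111 and 116 with all groups (without and with the scan day) and 45 to 94 without 1 mouse. Of 2546 values for 87 pairs of a gene and comparison that no setting called, 228 had the other direction. No level of Itgax in WT mice could be given beyond a bound, since 1 array in each WT group was well above background.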
